A study of Mus musculus with 16 samples.

Results

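The open chromatin of pancreatic islets from the inbred strain 129 (129S1_SvImJ in the labels) was set against that of 7 other inbred strains. ATAC-seq uses a transposase that cuts DNA where it is free of nucleosomes, so open regions collect reads and are called as peaks. The members were the 2 samples labelled as strain 129, 1 female and 1 male, of 16 samples in all. The other 14 samples were 1 female and 1 male each of A_J (AJ), C57BL/6J (B6), NOD_ShiLtJ (NOD), NZO_HlLtJ (NZO), CAST_EiJ (CAST), PWK_PhJ (PWK) and WSB_EiJ (WSB). The study names AJ, B6, NOD and NZO as classical strains, as it does 129, and CAST, PWK and WSB as wild-derived. No animal was given a treatment in the labels, and each sample held 50 islets. The sources used here give neither the age of the animals nor whether islets of several animals were pooled. Each strain has as its only replicates a female and a male. The p-values therefore measure the spread within these pairs around the mean difference between the sexes. That spread holds the sample and any sex difference that varies by strain.

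Islets are small endocrine organs in which beta cells, which release insulin, lie beside alpha, delta and other hormone cells. Promoters are open in most cell types, whereas distal open regions, which include enhancers, differ more between cell types and states. The 129 strains are laboratory strains long used as the source of embryonic stem cells for gene targeting. The peak lists rest on reads aligned to the B6 genome, so a sequence that 129 carries in more copies, or lacks, also changes what is counted at the matching place in B6. The study also aligned reads to individualized genomes, reported small differences and kept the alignments to B6. Those differences were given for whole alignments and not for single regions.

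The 16 peak lists were merged on chromosomes 1 to 19 into 347712 regions, of which 40940 were called in every sample. These are the shared regions. The signal of a sample in a region was the highest deposited summit signal there. Scaled signal is that value plus 1, divided by the median of the same quantity over the shared regions of the sample, so 1 is a typical shared region. The log2 difference is the mean of 129 minus the mean of the 7 other strains on this scale. It understates change where the signal is low, and it is given with its standard error (SE) from limma. A region was called different at a Benjamini-Hochberg adjusted p under 0.05 over all shared regions, in a limma model of strain and sex. The stricter term used below, outside the range, adds that both 129 samples lay above, or both below, all 14 others.

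The tissue label was checked at the start sites of islet genes. At Ins1, an insulin gene, scaled signal was 3.02 in the 129 female and 2.94 in the 129 male, and it ran from 1.45 through a median of 4.29 to 6.41 in the 14 others. Gcg, the glucagon gene of alpha cells, had 2.63 and 4.26 in 129. Pdx1, Nkx6-1, Mafa, Iapp and Ins2 also had a shared region at a start site, while at Sst, the somatostatin gene of delta cells, neither 129 sample had a peak and the median of the others was 0 too. None of these 7 shared regions passed the test, the smallest adjusted p from limma being 0.052 at Iapp, with a log2 difference of 0.83 (SE 0.21). Among markers of other cells, a shared region lay at a start site of 2 of 16 acinar, 4 of 8 duct, 2 of 10 endothelial, 4 of 9 stellate and fibroblast and 0 of 14 leukocyte genes. Summed over these regions, scaled signal in the 129 female and male was 1.98 and 2.41 for acinar genes (others 1.35 to 2.35), 4.02 and 2.89 for duct genes (2.65 to 3.68), 5.46 and 7.76 for endothelial genes (6.22 to 8.79) and 3.08 and 3.79 for stellate and fibroblast genes (2.68 to 6.11). Bulk islets cannot tell fewer cells of a type from less open chromatin in each cell.

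The 129 lists held 90476 peaks over 51.0 Mb in the female and 94216 peaks over 37.9 Mb in the male. The 14 other lists held from 77887 through a median of 119540 to 167051 peaks. As strain means, 129 had 92346 ± 2645 peaks (SD, n = 2) and the other strains 119698 ± 23607 (SD, n = 7 strains), a difference of -27352 (exact permutation test over the 8 strains, two-sided, p = 0.5). The smallest p that this design allows is 0.13, so it cannot pass 0.05. Read numbers of single samples were not used here, since the lists hold none and the study gives a mean over samples, so the depth behind each single value is unknown here.

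In the shared regions, the 129 male was closer to the B6 female (Pearson r = 0.931 across regions) than to the 129 female (r = 0.905). The NOD female (0.914), the NZO female (0.907) and the NOD male (0.906) were also at least as close to the 129 male. For the 129 female, the 129 male was the closest sample, followed by the B6 female (0.864) and the NOD female (0.844). The overlap of the lists, as bases in both divided by bases in either, was 0.535 between the 129 samples and up to 0.563 between the 129 male and the NZO female. As strain means, NOD was the closest to 129 both by r (0.868) and by overlap (0.524), and PWK the farthest by both (0.809 and 0.390). Regions are not independent replicates and share depth and base composition, so these values are descriptions.

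Of the 40940 shared regions, 415 were called higher in 129 (1.01%) and 852 lower (2.08%). Outside the range lay 159 of the higher (0.388% of shared regions) and 365 of the lower (0.892%). The median log2 difference was 1.01 in the regions called higher and -1.18 in those called lower, against 0.09 over all shared regions. Of the called regions 32.8% were higher, but the balance depended on the measure: at an unadjusted p under 0.05, 5182 were higher and 4099 lower, and whatever the p, both 129 samples lay above all others in 856 regions and below all others in 645. Without NZO 48.9% of called regions were higher. With no centring on the sample median the split was 16 higher and 125 lower (11.3% higher), while the median of all shared regions moved from 0.09 to -0.17. The count rests on the 129 female and on the whole set of strains: without the 129 female limma called 7 higher and 5 lower, and against the 4 other classical strains alone 17 and 8. With 8 strain means in place of samples it called 0 (1453 at an unadjusted p under 0.05, 9281 in the model of all samples).

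The region with the largest positive difference lay between genes on chromosome 4 (chr4:70841269-70841884, mm10), 306274 bases from the nearest start of a protein-coding gene, Megf9, which encodes a membrane protein with EGF-like repeats. Scaled signal was 1.42 in the 129 female and 1.70 in the 129 male, and from 0.124 through 0.322 to 0.393 in the 14 others. The log2 difference was 2.49 (SE 0.23, limma adjusted p = 0.00028). No sample of another strain came near both 129 values, the closest being the AJ male. The largest negative difference lay in an exon of Gm26766 (chr15:37042526-37043688), 34753 bases from Zfp706, a zinc finger gene. There the 129 female had 0.322 and the 129 male 0.20, against 0.911, 1.57 and 2.21 as the lowest, median and highest of the others (log2 difference -2.64, SE 0.27, adjusted p = 0.00051). The middle 200 bases of both are shown because they carry the largest changes; capitals mark any match to the 14 motifs searched, here homeodomain (TAATTA), NFY (CCAAT) and E-box (CAGATG) letters on either strand.
Megf9 region, chr4:70841477-70841676, plus strand: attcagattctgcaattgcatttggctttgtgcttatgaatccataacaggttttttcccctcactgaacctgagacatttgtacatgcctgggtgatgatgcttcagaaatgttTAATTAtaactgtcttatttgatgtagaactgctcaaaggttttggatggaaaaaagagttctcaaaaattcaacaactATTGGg
Zfp706 region, chr15:37043007-37043206, plus strand: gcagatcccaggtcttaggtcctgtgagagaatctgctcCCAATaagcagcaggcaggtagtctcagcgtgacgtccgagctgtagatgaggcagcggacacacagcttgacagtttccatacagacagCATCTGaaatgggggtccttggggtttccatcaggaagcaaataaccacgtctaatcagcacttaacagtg

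**Figure D1:**
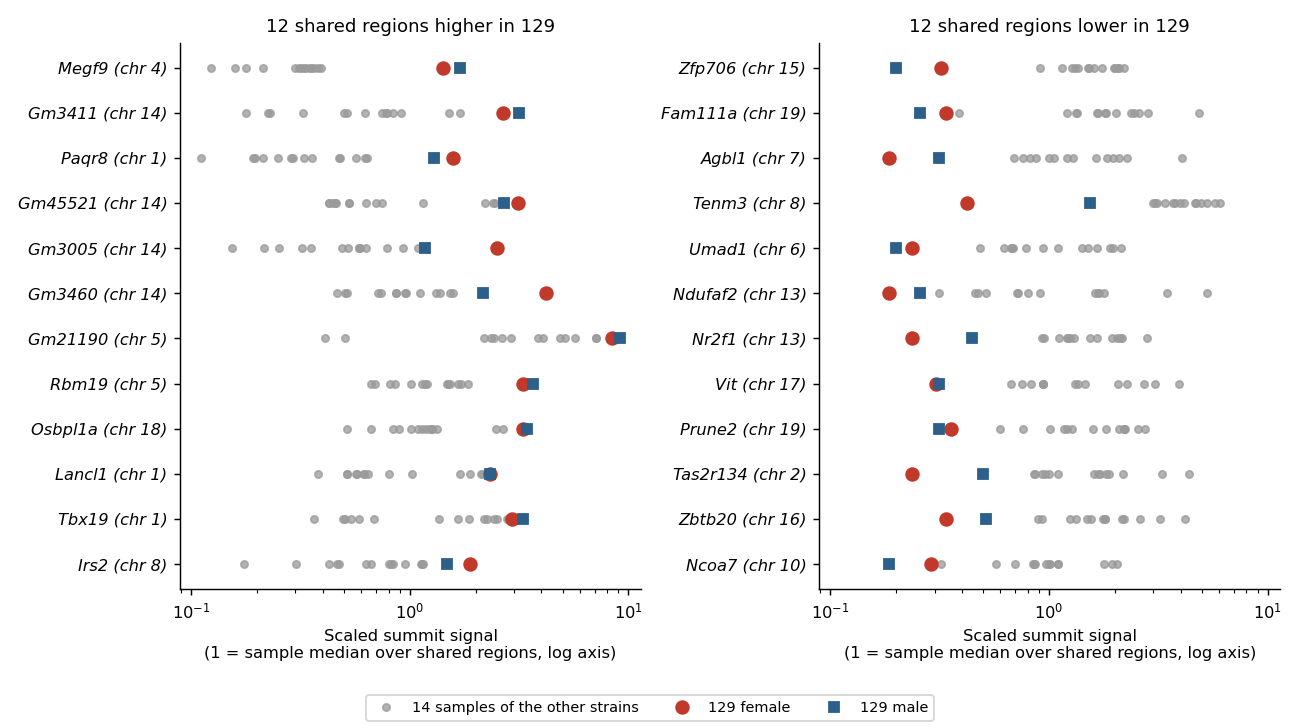
Scaled summit signal (log axis, 1 = sample median over shared regions) in the 12 regions with the largest positive and the 12 with the largest negative log2 difference among those called by limma and outside the range, named by the nearest protein-coding gene. Grey points are the 14 samples of other strains, red circles the 129 female and blue squares the 129 male; at Megf9 the 129 samples sit at 1.42 and 1.70 and the others at or below 0.393.

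Promoters made up 45.3% of the 159 higher regions outside the range and 41.0% of all shared regions, where a promoter is a region within 3 kb of any annotated start site. The promoter of Paqr8, a membrane progestin receptor gene (chr1:20916793-20917474), had 1.58 and 1.29 in the 129 female and male and at most 0.635 elsewhere, in the CAST male (log2 difference 2.16, SE 0.38, adjusted p = 0.013). At the promoter of the transcript 3930402G23Rik on chromosome 8 (chr8:10928296-10929159), the values were 1.88 and 1.49, against 0.175, 0.734 and 1.15 in the others (1.40, SE 0.31, adjusted p = 0.033). The nearest protein-coding gene is Irs2, 79299 bases away, which encodes a substrate of the insulin receptor that beta cells need. Between genes on chromosome 5, 122326 bases from Rbm19, which acts in ribosome assembly, both 129 samples (3.31 and 3.67) stood above the highest other value of 1.85 (1.57, SE 0.20, adjusted p = 0.003). The regions nearest to Lancl1, a glutathione-binding protein gene, and at the start of 4930568G15Rik near Tbx19 were higher by 1.46 and 1.44 on the log2 scale, but their 129 values lay close to the highest others: 2.32 and 2.33 against 2.16 near Lancl1, and 2.95 and 3.30 against 2.78 near Tbx19.

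Another 5 of the 12 higher regions lay in clusters of numbered gene models. At the start of Gm3411 (chr14:6286843-6288417) the 129 samples had 2.68 and 3.17 and the others from 0.178 to 1.70, with a median of 0.686 (log2 difference 2.34, SE 0.17, adjusted p = 4.7e-05). Gm45521, Gm3005 and Gm3460, all between 3 and 9 Mb on the same chromosome, had differences of 1.93, 1.87 and 1.75. The highest other value was in a PWK sample at each. It was 2.46 against 3.14 and 2.70 in the 129 female and male at Gm45521, 1.09 against 2.51 and 1.17 at Gm3005, and 1.58 against 4.19 and 2.17 at Gm3460. On chromosome 5 the region at Gm21190 was a merged block of 39093 bases, with 8.39 and 9.16 in 129 and up to 7.14 in the NOD female (1.62, SE 0.20). In the stretch of chromosome 14, 31 of 78 shared regions (39.7%) were called higher in 129 against 1.01% of all, and 30 of the 31 had a Gm-numbered model as the nearest start. Only 4 of the 31 were outside the range, so in the rest a sample of another strain was as high as a 129 sample. No filter on reads with several equally good places was stated, so values in such families are uncertain for any single gene model; how far reads were shared was not tested. Without that stretch 384 regions remained called higher. A stretch of Gm3005 is printed because its middle is a tandem repeat: shifted by 45 bases, 98.1% of its letters match themselves. Capitals mark the E-box letters (CATCTG, the other strand of CAGATG).
Gm3005 region, chr14:3545669-3545868, plus strand: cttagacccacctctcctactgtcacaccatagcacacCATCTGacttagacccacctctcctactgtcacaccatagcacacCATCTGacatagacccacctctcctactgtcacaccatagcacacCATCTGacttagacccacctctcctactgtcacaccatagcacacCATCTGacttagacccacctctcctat

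The lower regions were mostly distal. Of the 365 outside the range, 40.8% lay in introns, 32.6% between genes and 19.2% at promoters, against 27.1%, 26.9% and 41.0% of all shared regions. Their median GC content was 44.3%, against 47.0%. In the 129 strain list, in which the authors scored how well peaks repeat between the sexes, 41.4% of the lower regions had a peak at an irreproducible discovery rate of at most 0.05, against 80.1% of all shared regions and 99.4% of the higher ones. That list comes from the same 129 samples whose low or high signal chose these sets, so the order of the shares follows from the choice.

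In an intron of Fam111a, a protease gene that acts at stalled replication forks and against viruses (chr19:12584619-12585769), the 129 female had 0.339 and the male 0.257. The B6 female was close at 0.388, and the median and highest of the others were 1.81 and 4.87 (log2 difference -2.59, SE 0.37, adjusted p = 0.004). An intron of Tenm3, which encodes a teneurin of cell adhesion (chr8:48602817-48604234), had 0.424 and 1.54 against at least 2.98 in every other sample (-2.36, SE 0.35, adjusted p = 0.005). The ratio of the male to the female was larger here than that of the lowest other sample to the male. Ndufaf2, an assembly factor of respiratory complex I (chr13:108107828-108109573), had 0.186 and 0.257 in an intron and 0.313 in the NOD male as the nearest other value (-2.26, SE 0.26, adjusted p = 0.001). Near Agbl1, a carboxypeptidase gene, near Tas2r134, a bitter taste receptor gene, in Vit, which encodes a matrix protein, and in Prune2, the log2 differences were -2.49, -2.14, -2.20 and -2.19, with clear gaps to the lowest other value in each. In Ncoa7, a nuclear receptor coactivator gene, the region within 3 kb of the start of Gm5171 had 0.288 and 0.186, just under the AJ male at 0.321 (-2.07, SE 0.34, adjusted p = 0.008). As for the next lowest strain by its mean over the 365 regions, NOD stood there in 107, B6 in 63, CAST in 62, NZO in 58, AJ in 49, PWK in 20 and WSB in 6.

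The letters of the AP-1 site were common in the lower regions. AP-1 is a dimer of FOS and JUN proteins, which cells make in response to growth factors, calcium and stress, and it binds TGANTCA, a sequence that reads alike on both strands. In the 200 bases at the middle of each region, these letters occurred in 119 of the 365 lower regions outside the range (32.6%), in 8.36% of all shared regions and in 3 of the 159 higher regions (1.89%). Among distal regions the shares were 35.3% of 295 lower, 10.5% of all shared and 1.15% of 87 higher. Windows centred on the strongest summit instead, chosen after seeing the data, gave 60.5% of lower, 13.7% of all shared and 0.629% of higher regions. No other motif of the 14 had a gap of this size between lower and all shared regions: homeodomain letters had 9.86% and 6.08%, MAF letters (TGCTGAC) 6.85% and 4.12%, and FOXA letters (TGTTTAC) 6.85% and 4.61%. The letters of the GC box (GGGCGG) went the other way, at 2.19% and 13.4%, as did those of the CTCF core (AGNNGGCGC), at 0.548% and 4.73%. The lower regions held fewer promoters, as given above. Among distal regions alone these shares were 1.69% and 4.03% for the GC box and 0.339% and 3.64% for the CTCF core. A match of letters is a description and not a bound site.

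Of the lower regions outside the range that held the AP-1 letters, 6 of those with the largest difference are printed to show the letters in place, with the match in capitals. In the intron of Umad1 the 129 samples had 0.237 and 0.20 against 0.482, 1.02 and 2.15 in the others, and near Nr2f1, an orphan nuclear receptor gene, 0.237 and 0.443 against 0.931, 1.42 and 2.82. At Zbtb20, a repressor gene of which beta cells make use (the region lies in an intron of 4932412D23Rik, 129192 bases away), they had 0.339 and 0.514 against 0.893, 1.79 and 4.18. Log2 differences were -2.28 (SE 0.34) at Umad1, -2.22 (SE 0.35) near Nr2f1 and -2.09 (SE 0.26) at Zbtb20.
Umad1 region, chr6:8425639-8425838, plus strand: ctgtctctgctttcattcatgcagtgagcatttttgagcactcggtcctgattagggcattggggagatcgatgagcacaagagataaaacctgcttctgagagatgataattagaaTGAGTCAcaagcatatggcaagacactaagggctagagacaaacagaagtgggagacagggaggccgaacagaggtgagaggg
Nr2f1 region, chr13:78998888-78999087, plus strand: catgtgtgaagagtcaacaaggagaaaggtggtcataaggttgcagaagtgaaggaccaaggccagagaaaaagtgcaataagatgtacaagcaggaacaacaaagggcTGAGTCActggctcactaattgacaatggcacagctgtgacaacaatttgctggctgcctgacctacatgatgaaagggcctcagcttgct
Tas2r134 region, chr2:51417972-51418171, plus strand: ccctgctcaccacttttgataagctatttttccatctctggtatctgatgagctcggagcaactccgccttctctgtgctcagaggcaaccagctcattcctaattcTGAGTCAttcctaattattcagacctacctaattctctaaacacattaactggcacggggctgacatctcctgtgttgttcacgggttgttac
Zbtb20 region, chr16:42746206-42746405, plus strand: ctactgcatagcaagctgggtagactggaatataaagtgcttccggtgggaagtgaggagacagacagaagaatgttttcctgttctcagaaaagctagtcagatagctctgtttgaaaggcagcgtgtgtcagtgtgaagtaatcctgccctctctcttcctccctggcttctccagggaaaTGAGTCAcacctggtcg
Tle4 region, chr19:14512420-14512619, plus strand: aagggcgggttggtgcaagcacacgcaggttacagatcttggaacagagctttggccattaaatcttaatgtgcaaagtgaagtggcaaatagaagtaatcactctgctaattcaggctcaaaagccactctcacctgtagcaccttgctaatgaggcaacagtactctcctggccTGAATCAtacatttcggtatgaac
Cd47 region, chr16:50075705-50075904, plus strand: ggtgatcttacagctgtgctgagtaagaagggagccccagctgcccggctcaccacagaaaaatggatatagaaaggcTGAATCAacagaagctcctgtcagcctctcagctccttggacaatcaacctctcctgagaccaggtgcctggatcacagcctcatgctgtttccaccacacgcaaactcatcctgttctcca

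Over all 2530 distal shared regions with the AP-1 letters, whatever their test, 183 were called lower (7.23%) and 9 higher (0.356%). Of the 21641 distal regions without them, 461 were called lower (2.13%) and 230 higher (1.06%). The median log2 difference was -0.29 with the letters and 0.02 without, and 70.6% against 47.6% of regions had a negative difference. Within each sample, the median centred log2 signal of the distal AP-1 regions, minus that of the other distal regions, was -0.17 in the 129 female and -0.16 in the 129 male. In the 14 others it ran from -0.12 in the AJ male through a median of 0.17 to 0.44 in the WSB male, so both 129 samples stood below all others by a small margin. The sexes of AJ (0.24 and -0.12) and B6 (-0.02 and 0.30) differed from each other by more than this margin. The 129 samples also stood high in the excess of promoter over distal signal, at 1.25 and 0.90 on the log2 scale against 0.50 to 1.33 in the others. The samples nearest to the 129 female in that excess, the NZO male (1.33) and the CAST female (1.09), had AP-1 levels of 0.31 and 0.12. Those nearest to the 129 male, the PWK male (0.92), the CAST male (0.96) and the NOD female (0.83), had AP-1 levels of 0.05, 0.13 and -0.04. The part of this excess in the AP-1 level was not tested. Without the 129 female the median difference was -0.21 in the AP-1 regions and 0.09 in the other distal ones, and without the 129 male -0.39 and -0.05. Against the classical strains alone it was -0.28 and -0.03. Centring within bins of GC content gave -0.25 and 0.06. The AP-1 share of the lower regions was 31.9% with GC bins and 33.0% with quantile normalization, but 13.5% of the 815 lower regions when those called in at least 12 samples were fitted with 0 where no peak was listed, and 0 of 4 without the 129 female.

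**Figure D2:**
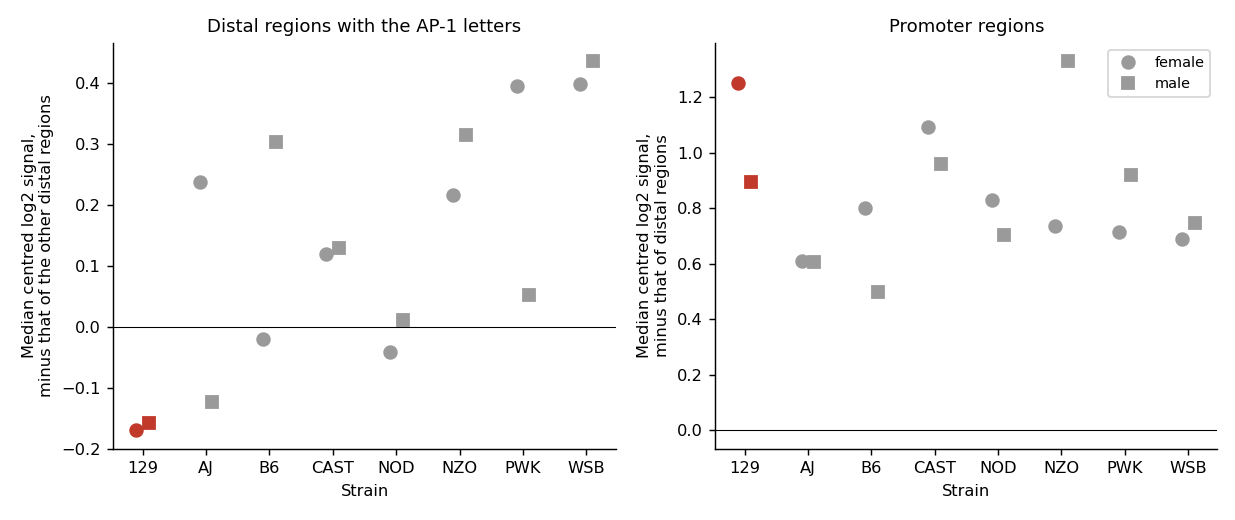
Left, median centred log2 signal of distal shared regions with the AP-1 letters minus that of the other distal regions, by strain; right, the same for promoter minus distal regions. Circles are females and squares males, with 129 in red; on the left the 129 samples lie at -0.17 and -0.16, below all others, and on the right at 1.25 and 0.90, within the range of the others.

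A share of the lower regions came from a single chromosome. On chromosome 19, 160 of 975 shared regions were called lower (16.4%, against 2.08% of all) and 1 higher, and 46 of the 365 outside the range lay there. On the other chromosomes the share called lower ran from 0.785% on chromosome 11 to 2.78% on chromosome 13. The difference was not held by a few regions: 824 of the 975 (84.5%) had a negative log2 difference, with a median of -0.45, and in steps of 5 Mb the median was negative throughout, from -0.12 at the start to -0.76 between 30 and 35 Mb. Median centred log2 signal over the chromosome was -0.21 in the 129 female and -0.32 in the 129 male. B6 was lower still, at -0.43 and -0.64, PWK lay at -0.05 and 0.04, and the other 5 strains lay between 0.22 and 0.50. Low signal on chromosome 19 was thus common to 129 and B6 and not particular to 129. With each sample centred within each chromosome, an alternative chosen after seeing the data, 8 regions of chromosome 19 were lower and outside the range, of 335 in all, and each of the 24 regions named above kept its call. Without chromosome 19, 35.1% of the 319 lower regions outside the range held the AP-1 letters.

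Chromosome 18 went the other way. There 45 of 1454 shared regions were called higher (3.09%) and 15 lower, and 22 of the 159 higher regions outside the range lay there. The chromosome median was 0.07 in the 129 female and 0.14 in the 129 male, again beside B6 (0.10 and 0.22) and PWK (0.15 and 0.13), while AJ (-0.37 and -0.28) and CAST (-0.40 and -0.35) were lowest. The last of the 12 higher regions lay there: in Osbpl1a, an oxysterol-binding protein gene, an intronic region had 3.29 and 3.44 and the others at most 2.67, in the PWK male (1.55, SE 0.23, adjusted p = 0.005). With centring within chromosomes 5 of its regions were higher and outside the range, and with no centring 0.

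**Figure D3:**
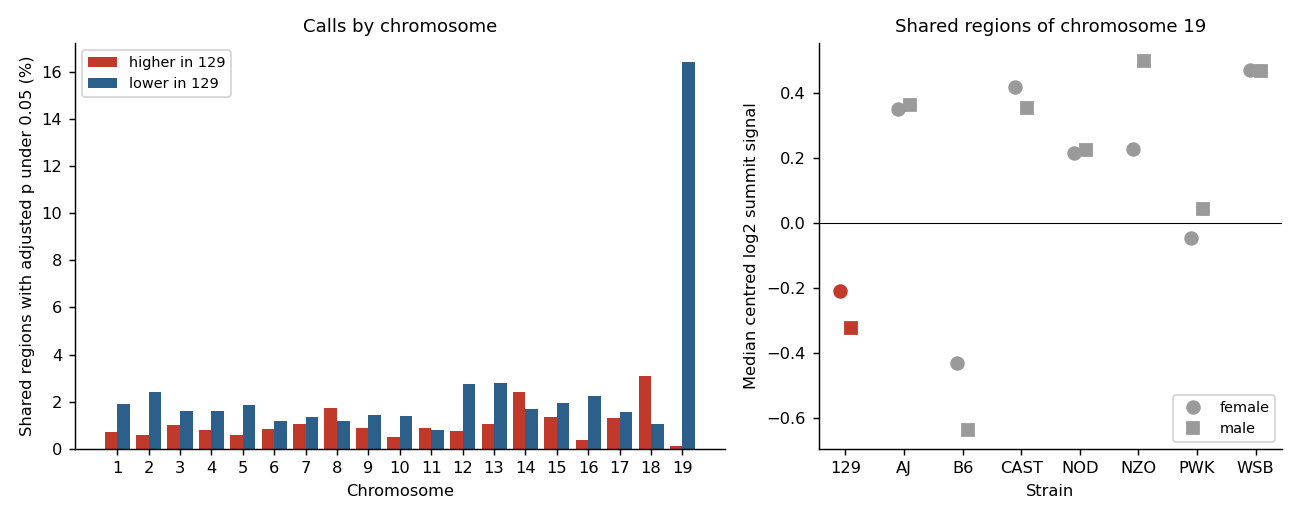
Left, percent of the shared regions of each chromosome called higher (red) or lower (blue) in 129 by limma; right, median centred log2 summit signal over the 975 shared regions of chromosome 19, by strain, circles for females and squares for males. Chromosome 19 reaches 16.4% lower, and 129 (red) lies with B6 below 0 there.

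In windows of 1 Mb, no window held more than 4 regions outside the range, and 2 of 2379 windows with a shared region held 4. On chromosome 1 from 171 to 172 Mb, the promoters of Usf1, a glucose-responsive transcription factor gene, and of Sdhc, a subunit of succinate dehydrogenase, were higher in 129. At Usf1 the 129 samples had 2.88 and 2.00 against 0.867, 1.12 and 1.82 (log2 difference 1.02, SE 0.22, adjusted p = 0.031), and at Sdhc 2.59 and 2.10 against at most 2.06 (0.77, SE 0.19, adjusted p = 0.043). In the same window, a region near Fcgr4 was higher (0.92, SE 0.18) and another near Fcgr3 was lower (-1.11, SE 0.22). These encode receptors for the constant part of antibodies. The other window with 4, on chromosome 19 from 34 to 35 Mb, held lower regions at Stambpl1 and near Kif20b and in introns of Slc16a12 and Pank1, with differences from -1.09 to -1.47. Of 11 windows with 3, those that come next in genome order held lower regions around Tmem245 on chromosome 4 and at Slc34a2, Cckar and Tbc1d19 on chromosome 5, and 3 higher regions inside Osbpl3 on chromosome 6. The one with the largest difference at Osbpl3, a lipid transfer protein gene, had 1.56 and 1.43 in 129 and at most 0.875 elsewhere (1.24, SE 0.23, adjusted p = 0.016). Near Cckar, the cholecystokinin receptor gene, the 129 samples had 0.746 and 0.929 against at least 1.24 (-1.49, SE 0.22, adjusted p = 0.004).

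Apart from signal in shared regions, 182 merged regions were called in both 129 samples and in none of the 14 others (0.0523% of 347712), and 183 in all 14 others and in neither 129 sample (0.0526%). A region without a peak is one where none passed the authors' threshold, not one shown to be closed. The same count of regions called in a single strain was 217 in AJ, 223 in NOD, 393 in B6, 1121 in NZO, 3385 in PWK, 3524 in WSB and 6249 in CAST, so 129 had the fewest of the 8 strains. Regions missing in a single strain numbered 64 in B6, 104 in WSB, 142 in NZO, 156 in NOD, 491 in CAST, 630 in AJ and 787 in PWK. Both 129 samples called 67140 regions, and the female alone 16179 and the male alone 17896.

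**Figure D4:**
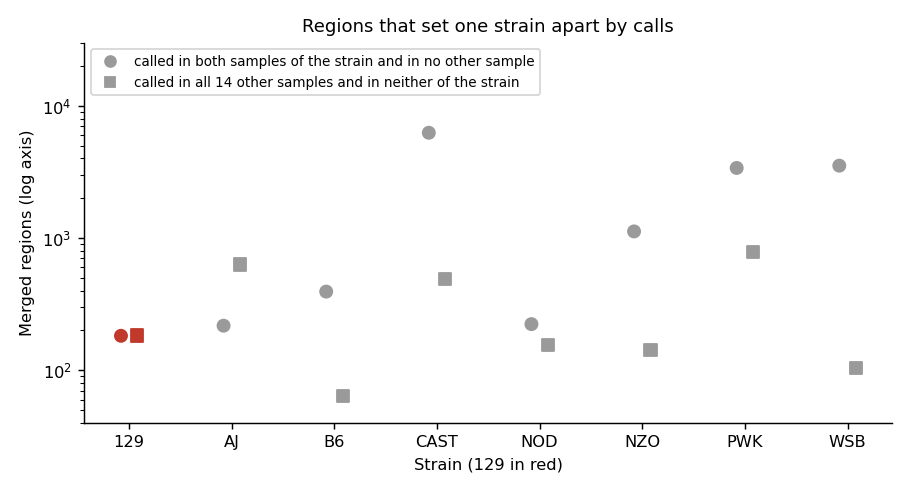
Number of merged regions (log axis) called in both samples of a strain and in none of the 14 other samples (circles), and called in all 14 other samples and in neither of the strain (squares), by strain, with 129 in red. 129 has 182 and 183, the fewest circles of the 8 strains.

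The 129-only regions were narrow, with a median width of 246 bases against 1144.5 for shared regions, and 14 of the 182 (7.69%) were in the 129 strain list at an irreproducible discovery rate of at most 0.05. The stretch of chromosome 14 between 3 and 9 Mb held 49 of them (26.9%), 48 with a Gm-numbered model as the nearest start, which left 133 elsewhere. More than 50% of the bases were repeat-masked in 28.6% of the 129-only regions and in 1.58% of the shared ones. In 8 of the 182 (4.40%) the middle 200 bases matched themselves at 80% of letters or more after a shift of 10 to 100 bases, against 0.220% of shared regions and 0 of the 183 missing ones.

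The 129-only region with the highest lower value of the pair lay between genes on chromosome 8 (chr8:100518771-100518896), with scaled signal of 1.58 in the female and 0.929 in the male, all of it repeat-masked and more than a megabase from the nearest protein-coding start, that of the cadherin gene Cdh8. Between genes on chromosome 15 (chr15:37203211-37203433), 29603 bases from Grhl2, a transcription factor gene of epithelia, the values were 2.02 and 0.914. In introns, Stox2 had 0.898 and 0.757, Dpp6, a partner of potassium channels, 0.644 and 0.571, and Fras1, a basement membrane gene, 1.09 and 0.571. The other 3 of the 8 strongest lay near Grxcr1 (1.41 and 0.714), near Crbn, which encodes cereblon (0.644 and 1.00), and inside Socs6, which encodes a suppressor of cytokine signalling, within 3 kb of the start of AC122398.2 (0.610 and 0.700). All 8 were in the 129 strain list, which comes from the same 129 samples. The sequences near Grhl2 and in Fras1 are printed because both are tandem repeats, which match themselves at 94.4% of letters after a shift of 40 bases and at 91.4% after 48, and the one near Cdh8 because it is the strongest. In the last, capitals mark the NFY letters.
Grhl2 region, chr15:37203222-37203421, plus strand: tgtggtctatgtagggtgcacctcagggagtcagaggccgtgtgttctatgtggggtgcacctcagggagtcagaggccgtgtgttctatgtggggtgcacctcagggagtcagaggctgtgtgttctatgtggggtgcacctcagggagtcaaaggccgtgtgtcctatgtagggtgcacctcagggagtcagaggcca
Fras1 region, chr5:96436144-96436343, plus strand: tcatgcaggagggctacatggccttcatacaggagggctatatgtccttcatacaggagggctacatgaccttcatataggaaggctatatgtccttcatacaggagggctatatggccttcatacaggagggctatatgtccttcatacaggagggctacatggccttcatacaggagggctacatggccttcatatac
Cdh8 region, chr8:100518734-100518933, plus strand: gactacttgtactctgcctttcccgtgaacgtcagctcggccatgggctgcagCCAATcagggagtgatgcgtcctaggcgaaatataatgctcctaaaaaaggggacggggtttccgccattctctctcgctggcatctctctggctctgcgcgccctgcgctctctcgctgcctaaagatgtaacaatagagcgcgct

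The regions missing in 129 had a median width of 678 bases, and 41.0% lay in introns and 37.7% between genes. The AP-1 letters occurred in 55 of the 183 (30.1%), in 8.36% of all shared regions and in 9 of the 182 129-only regions (4.95%). Letters were not searched in the regions missing in another strain. On chromosome 19 lay 25 of them and none of the 129-only regions. The region with the highest lowest value in the others was in an exon of Gm45225 on chromosome 7 (chr7:25988095-25989168), 71329 bases from Cyp2b10, a drug-metabolizing enzyme gene, with 0.571, 1.03 and 1.54 as the lowest, median and highest of the 14. Near Htr1a, a serotonin receptor gene (chr13:105399312-105400111), these values were 0.482, 0.685 and 1.25. At the promoter of Atad1 on chromosome 19, an ATPase that pulls misplaced proteins from mitochondria, they were 0.482, 0.999 and 3.64. A second region of Fam111a, at its promoter (chr19:12574877-12575902), had 0.376, 1.82 and 3.54, with the B6 female lowest. Intronic regions in Oca2, a melanosome gene, and Dcdc2a, and regions near Dusp26, a phosphatase gene, and Gal, the gene of the neuropeptide galanin, had medians of 0.673, 0.643, 0.654 and 0.727. The sequences near Htr1a and Gal are printed because each holds the AP-1 letters more than once. Capitals also mark the NFY letters (CCAAT) in the former and the E-box letters (CATCTG) in the latter.
Htr1a region, chr13:105399612-105399811, plus strand: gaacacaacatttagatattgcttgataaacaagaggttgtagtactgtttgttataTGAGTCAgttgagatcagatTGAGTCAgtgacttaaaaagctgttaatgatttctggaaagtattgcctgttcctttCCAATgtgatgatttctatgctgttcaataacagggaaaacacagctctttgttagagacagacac
Gal region, chr19:3419409-3419608, plus strand: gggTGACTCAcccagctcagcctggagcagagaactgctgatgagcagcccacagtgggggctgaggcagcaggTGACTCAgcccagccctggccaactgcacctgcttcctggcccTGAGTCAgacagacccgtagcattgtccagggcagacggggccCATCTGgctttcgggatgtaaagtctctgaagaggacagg

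Genes of islet function were then read at their start sites, as the shared region within 3 kb of a start and nearest to it. Over all 13739 shared regions near a protein-coding start, the median log2 difference between 129 and the other strains was 0.24. The lists are therefore set beside these regions, of which 122 were called higher and 149 lower.

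Of the beta cell hormone and granule genes, 16 had such a region, 1 was called higher and none lower, with a median difference of 0.30. The called gene was Slc30a8, the zinc transporter of insulin granules: 1.83 in the 129 female and 2.14 in the 129 male against 0.570, 0.994 and 1.57 in the others (chr15:52293800-52299772, log2 difference 1.04, SE 0.21, adjusted p = 0.021). Both 129 samples stood above all others. The other granule genes did not pass, among them Chga (0.62, SE 0.22) and Ins2 (0.56, SE 0.22). Of the hormone genes of other endocrine cells 2 of 6 had a region, and Ttr, the transthyretin gene that alpha cells express, was called: 1.97 and 2.00 against 0.825, 1.16 and 1.65 (0.79, SE 0.20, adjusted p = 0.047).

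Among 22 islet transcription factor genes with a region, Gata6, a regulator of pancreas formation, was called higher, and none was called lower. Its start had 4.15 and 3.91 against 1.53, 2.08 and 3.03 (0.94, SE 0.21, adjusted p = 0.033). Ttr and Gata6 both lie on chromosome 18, where the median of 129 was high, as given above. The start of Foxa1, a pioneer factor gene, had 1.34 and 1.53, below all others (1.59 to 3.68), and that of Neurod1 4.34 and 4.69, above all others (median 3.11), but neither passed the test (-0.78, SE 0.25, adjusted p = 0.096; 0.51, SE 0.20, adjusted p = 0.16). In the region nearest to a start, none was called among 10 genes of glucose sensing and excitability, 11 of exocytosis, 11 of G protein receptors and cAMP and 21 of redox defence. Their medians were 0.44, 0.33, 0.28 and 0.24. The lowest single value in these lists was that of Slc2a2, the glucose transporter of mouse beta cells, at -0.83 (SE 0.26, adjusted p = 0.099), with 0.915 and 1.13 in 129 and a median of 2.03 in the others.

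All 20 genes of the unfolded protein response, by which cells match protein folding to load, had a region, and all 20 differences were positive, with a median of 0.37, against 10395 of the 13739 regions near a start. Among the regions nearest to a start, only that of Xbp1, the spliced transcription factor of that response, passed the test. It had 3.27 and 2.59 against 0.795, 1.42 and 2.66 (1.03, SE 0.23, adjusted p = 0.033). The highest other sample lay above the 129 male. At Atf6, a sensor in the same response, 3.69 and 2.89 lay above all others (at most 2.50), at an adjusted p of 0.052 (0.83, SE 0.21). Counting every shared region in these genes or within 3 kb of either end, 3 of 41 were called higher (7.32%, against 1.01% of all shared regions) and none lower: those of Xbp1, Herpud1 (1.13, SE 0.26) and Dnajc3 (1.23, SE 0.29), the last 2 named after their values were seen. In the Dnajc3 region the PWK male (1.73) lay above the 129 male (1.29). The called Herpud1 region also lay at a start, 129 bases from one, though it was not the region nearest to a start. There the 129 samples had 2.41 and 1.44 and the others at most 1.43 (limma adjusted p = 0.036).

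Of 25 genes tied to type 2 diabetes in human studies, Slc30a8 again was the only one called in the region nearest to a start. Within and around the genes of this list, however, 6 of 107 shared regions were called lower (5.61%, against 2.08% of all) and 1 higher. They are named here although chosen after their values were seen. An intronic region of Zfand6 had 0.695 and 1.04 against 0.732, 4.39 and 7.18 (-2.18, SE 0.31, adjusted p = 0.004), with NZO as low as 129 at 1.30 in the female and 0.732 in the male. The intron of Tle4, a corepressor gene on chromosome 19, whose sequence is printed above, had 0.237 and 0.486 against 0.625, 1.55 and 3.08 (-2.06, SE 0.42, adjusted p = 0.024). The others were Camk1d (-1.46, SE 0.33), Ank1 (-1.03, SE 0.23), Cdkal1 (-0.99, SE 0.24) and, on chromosome 19, Ide, the insulin-degrading enzyme (-0.95, SE 0.23). The Ank1 region lay 2877 bases from an Ank1 start, within the 3 kb used for start sites, but was not the nearest. In the Camk1d region the NZO male (0.375) and the B6 female (0.459) lay below the 129 male (0.471).

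Counted in the same way over the whole gene, the other islet lists held calls too, also named after their values were seen. Over all shared regions 1.01% were called higher and 2.08% lower. The shares called higher were 2.74% in glucose sensing and excitability, 1.92% in exocytosis and 4.55% in receptors and cAMP. They were 2.38% in redox defence, 1.67% in islet factors and 0.870% in the granule list. The shares called lower were 3.33% in islet factors and 1.74% in the granule list. In glucose sensing and excitability 2 of 73 regions were higher, both in introns of Kcnma1, a calcium-activated potassium channel gene (0.94, SE 0.20, and 0.75, SE 0.18). In exocytosis 1 of 52 was higher, in an exon of Syt13 (1.12, SE 0.25). Among receptors and cAMP 2 of 44 were higher, inside Chrm3, a muscarinic receptor gene (0.76, SE 0.17), and in Rapgef4, a cAMP sensor gene (1.11, SE 0.19). The Chrm3 region lay 191917 bases from the nearest Chrm3 start and 49 bases from the start of Gm47405. In the Rapgef4 region B6, NZO and WSB were as high as 129. In redox defence 1 of 42 was higher, 2039 bases from the start of Keap1 (0.99, SE 0.18, limma adjusted p = 0.015). There NZO (0.951 in the female and 0.964 in the male) was as high as 129 (0.881 and 1.09). In the islet factor list 1 of 60 was higher, at Gata6, and 2 lower, in introns of Glis3 on chromosome 19 (-1.27, SE 0.27) and St18 (-0.91, SE 0.21). In the granule list 1 of 115 was higher, at Slc30a8, and 2 lower, in introns of Pam, a peptide-amidating enzyme gene (-1.49, SE 0.23), and Ptprn2 (-1.31, SE 0.28). In the Ptprn2 region the PWK male (0.394) lay below the 129 female (0.407).

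Among marker genes of other cell types, 2 starts were called and both were lower in 129. Onecut1, a transcription factor of duct and endocrine precursors, had 0.322 and 0.343 against 0.379, 0.625 and 0.732 (-0.81, SE 0.19, adjusted p = 0.038). Acta2, the smooth muscle actin of stellate cells, had 0.288 and 0.286 against 0.238, 0.756 and 1.19 (-1.18, SE 0.24, adjusted p = 0.021), and it lies on chromosome 19. Other members of these lists differed in sign: 2 of 4 duct starts and 1 of 4 stellate and fibroblast starts had a positive difference. Over the whole gene, 1 of 8 leukocyte regions was higher (12.5%, against 1.01% of all shared regions). It lay by Csf1r and 2301 bases from the start of Hmgxb3 (1.02, SE 0.18). Of 6 acinar regions 1 was lower (16.7%, against 2.08% of all shared regions), in an exon of Nr5a2 (-1.28, SE 0.28). Both were named after their values were seen. Of 3 genes with alleles known in 129 substrains, Casp4 alone had a shared region at a start (-0.19, SE 0.36, adjusted p = 0.78). The part of cell composition in any of these differences was not tested.

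**Figure D5:**
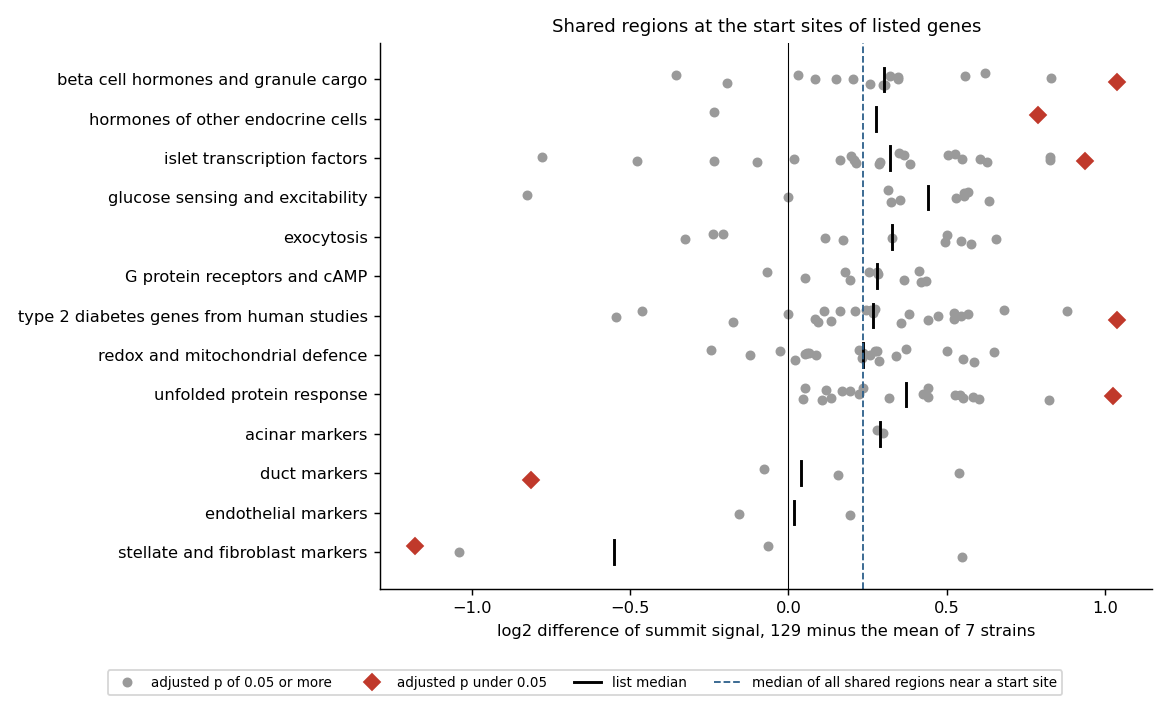
log2 difference of summit signal, 129 minus the mean of 7 strains, in the shared regions at the start sites of listed genes, 1 point a gene; red diamonds have an adjusted p under 0.05, black bars are list medians, and the dashed line is the median of all shared regions near a start (0.24). Most medians lie near the dashed line; Slc30a8 (1.04, in 2 lists), Xbp1 (1.03), Gata6 (0.94) and Ttr (0.79) are the called genes on the right.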

How the data were processed

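Nuclei of 50 islets a sample were transposed, and read pairs were sequenced. Per the methods of the study and the submitters' processing notes, the authors trimmed adapters with cutadapt 2.0, aligned to mm10 with Bowtie2 2.3.4.1, removed unmapped, mitochondrial and duplicated reads with SAMtools and Picard 2.9.2, and ran MOSAiCS on each sample to call peaks (false discovery rate 0.05). Neither a shift for the transposase nor a filter on ambiguous alignments was stated. The deposited summit signal of each peak is a whole number that was not scaled to depth, and the deposited mean signal served as an alternative. The deposited −log10 p-value of a peak and the deposited −log10 irreproducible discovery rate of the 129 strain list were used as thresholds. Other strain lists were not used here.

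Peaks on chromosomes 1 to 19 that overlapped or touched were merged. For shared regions, log2(summit signal + 1) was centred on the sample median, so differences are relative to the typical shared region. limma 3.58.1 (R 4.3.3) was fitted with strain and sex, over all 16 samples, with the contrast of 129 minus the mean of the 7 other strains. The methods of the study tested strain on read counts, which the lists do not hold. Gene models came from GENCODE M21 and sequences from GRCm38.p6, the assembly of mm10; none from chromosome 18 is printed. Letters were searched on both strands in 200 bases.

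Regions were named as the 12 largest differences in each direction among calls outside the range, the 8 strongest of each call pattern, listed genes called at a start and outside the range with up to 4 others of smallest p in each list, the tissue genes, and the 5 windows of 1 Mb with the most such regions. Members and lists were chosen with earlier results of these data known. The alternatives changed scaling, pseudocount, signal, filters, merging, the model, or the samples and strains included.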

Additional observations from a re-analysis of the deposited data

How the results depend on the processing

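Counts are given as higher, lower, higher outside the range and lower outside the range, and were 415, 852, 159 and 365. With no centring they were 16, 125, 5 and 60; with GC bins 790, 1316, 311 and 464; with the mean signal 152, 368, 66 and 186; with regions called in at least 12 samples 1120, 1370, 153 and 815; with regions of at most 2000 bases 275, 797, 98 and 348; with peaks of −log10 p of at least 5, 203, 464, 87 and 203. With 129 against 14 samples as one group they were 1, 2, 1 and 2 (3821 at an unadjusted p under 0.05), with 8 strain means 0, 0, 0 and 0 (1453), and with classical strains only 17, 8, 16 and 8. Without CAST they were 163, 483, 81 and 293, without NOD 200, 520, 73 and 298, without NZO 2144, 2236, 781 and 842, without WSB 135, 291, 52 and 166, without B6 606, 1245, 278 and 619, and without PWK 500, 842, 275 and 394. A trended prior variance gave 678, 1239, 245 and 455, and centring within chromosomes 322, 659, 126 and 335; both were chosen after seeing the data. Leaving out each sample in turn gave 7 to 1894, 5 to 2139, 2 to 665 and 4 to 766, the lowest without the 129 female and the highest without the NZO male. Without the 129 male the counts were 172, 376, 118 and 338.

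Regions in 129 only and missing in 129 numbered 182 and 183. With peaks of −log10 p of at least 5 they numbered 25 and 68, with equal list lengths 261 and 66, with at least 50% of the region covered 187 and 35, without AJ 204 and 405, without NZO 216 and 327, and without PWK 322 and 262. Leaving out each sample gave 187 to 4189 and 183 to 1371, the highest without the 129 male. With a 129 sample left out, the rule rests on the remaining 129 sample alone and is looser. Leaving out a sample of another strain loosens it too. Beyond this, the causes of the changes were not tested. No paired analysis was possible because the labels give no replicate numbers; the model holds sex, and without it the counts were 539, 1109, 205 and 437.

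The 24 named shared regions kept their direction in all 38 alternative fits in which they could be fitted. They were chosen as outside the range, which largely fixes the direction in fits that leave out samples or change the model. Of 891 such values, 776 kept the call and 115 lost it. With 8 strain means 0 of the 24 kept the call. With classical strains only 3 kept it, and 3 with 129 against 14 samples as one group. Read depth of single samples is unknown here, which limits what a missing peak can show.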

Other observations

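Over the shared regions, the SD of the female minus male log2 difference was 0.546 in 129, the third highest of the 8 strains, against 0.284 in WSB, the lowest, and 0.702 in NZO, the highest. Regions more than 2-fold apart made up 6.71% in 129, 15.5% in NZO and 0.344% in CAST.

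In distal regions with the RFX letters (GTTGCCA), a motif of factors that act in endocrine and ciliated cells, the median centred log2 signal minus that of the other distal regions was 0.18 in the 129 female and 0.14 in the 129 male. Both values lay above 13 of the 14 others, and the 14 ran from 0.01 to 0.18. Their median log2 difference between 129 and the other strains was 0.03, and the share called lower was 2.08%.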
